A study of Mus musculus with 4 samples.

Results

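Binding sites of p63 were described at 10 genes of the Wnt pathway, namely the ligand genes Wnt3, Wnt3a, Wnt4, Wnt5a, Wnt7b, Wnt10a and Wnt10b, the transcription factor genes Lef1 and Tcf7l1, and Ctnnb1, which encodes beta-catenin. A peak was assigned to a gene when its summit lay in the gene body or within 50 kb on either side (mm10). This gave 45 of the 14593 peaks in alphaKO and 39 of the 10616 peaks in WT, at 10 of 21883 annotated protein-coding genes. The data came from chromatin immunoprecipitation followed by sequencing (ChIP-seq) of epidermis taken from mouse dorsal skin at postnatal day 0, precipitated with the p63 antibody EPR570. The groups were a ChIP sample from epidermis labelled p63 alphaKO (alphaKO) and a ChIP sample from wild-type epidermis (WT), with 1 library per genotype, and an input sample of each genotype, not used here. The sources used here do not say what allele the label alphaKO stands for, whether it was homozygous, which strain carried it, or how many animals of which sex were taken.

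Wnt ligands are secreted proteins that bind Frizzled receptors with the co-receptors Lrp5 and Lrp6. In the canonical branch this stops the destruction of beta-catenin, which enters the nucleus and acts with Lef and Tcf proteins bound to DNA. In skin, this branch starts hair follicles and sustains their growth, and epidermal keratinocytes are a source of the ligands. p63 is the transcription factor that maintains the basal layer of stratified epithelia, and its alpha isoforms carry a C-terminal tail that the other isoforms lack.

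Every fold enrichment below is the authors' own value for a peak, a ratio of the read pileup at the summit to the peak caller's local background, and ranks it within its own list. Folds of alphaKO and WT are therefore set side by side and are not a measure of change. The lists had median folds of 15.5 in alphaKO and 8.44 in WT, and the median local background was 5.81 in alphaKO and 8.31 in WT, in units of pileup. Read totals are not in the peak lists, so the depth is unknown. With 1 library per genotype no difference was tested and no p-value is given. A ChIP of whole epidermis cannot tell fewer cells with p63 at a site from less p63 at that site per cell. Whether the alphaKO protein keeps the part of p63 that EPR570 binds is not given in the sources used here. Of 6 basal keratinocyte markers, 6 had a summit within 50 kb in alphaKO and 6 in WT. The melanocyte, dermal fibroblast, endothelial and immune lists had 3 to 4 of 6 genes in alphaKO, near the 55.0% of all protein-coding genes, and 1 to 3 of 6 in WT, where all genes had 47.1%. Peaks do not measure transcripts, so these counts do not check which cells were present.

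p63 was found near nearly all of these Wnt pathway genes in both genotypes. The 10 genes were chosen with earlier results of these data known. Values over all genes are therefore given as description, and no enrichment was tested. In alphaKO 10 of the 10 genes had at least 1 summit, where 55.0% of all protein-coding genes did. In WT 9 of the 10 had at least 1, where 47.1% of all genes did. The exception in WT was Wnt5a, so that 9 of the 10 genes were marked in both lists (40.9% of all genes), 1 in alphaKO only (14.1% of all genes) and 0 in WT only (6.14% of all genes). Counting gene bodies alone, 9 genes had a summit in alphaKO, beside 19.5% of all genes, and 9 in WT, beside 15.7%. The 9 genes other than Wnt5a each held a site listed in both genotypes, which 36.6% of all genes did. The median number of summits per gene was 4 in alphaKO and 4.5 in WT, beside medians over all genes of 1 in alphaKO and 0 in WT. The windows were slightly longer than usual, with a median of 135 kb against 117 kb over all genes. Both medians include the same 50 kb flanks, so the gene bodies were longer than usual by a larger proportion. The longest were those of Tcf7l1 (163 kb) and Lef1 (114 kb), and the counts for gene bodies were not adjusted for length. Per Mb of window there were 30.0 summits in alphaKO and 26.0 in WT, where the windows of all genes together held 7.01 in alphaKO and 5.37 in WT.

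The peaks formed 58 sites, of which 26 were in both lists, 19 in alphaKO only and 13 in WT only. Thus 57.8% of the alphaKO peaks (exact Clopper-Pearson 95% interval 42.2 to 72.3) overlapped a WT peak by at least 1 bp, beside 48.4% over the whole alphaKO list. Of the WT peaks, 66.7% (49.8 to 80.9) overlapped an alphaKO peak, beside 66.6% over the whole WT list. These intervals cover counting error only, and each contains the share of its whole list. At the 26 shared sites the summits of the lists lay a median of 6.5 bp apart, and at 19 of them within 20 bp. The ligand genes held 34 sites (15 shared, 9 in alphaKO only, 10 in WT only), Lef1 and Tcf7l1 held 14 (6, 6 and 2), and Ctnnb1 held 10 (5, 4 and 1).

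**Figure D1:**
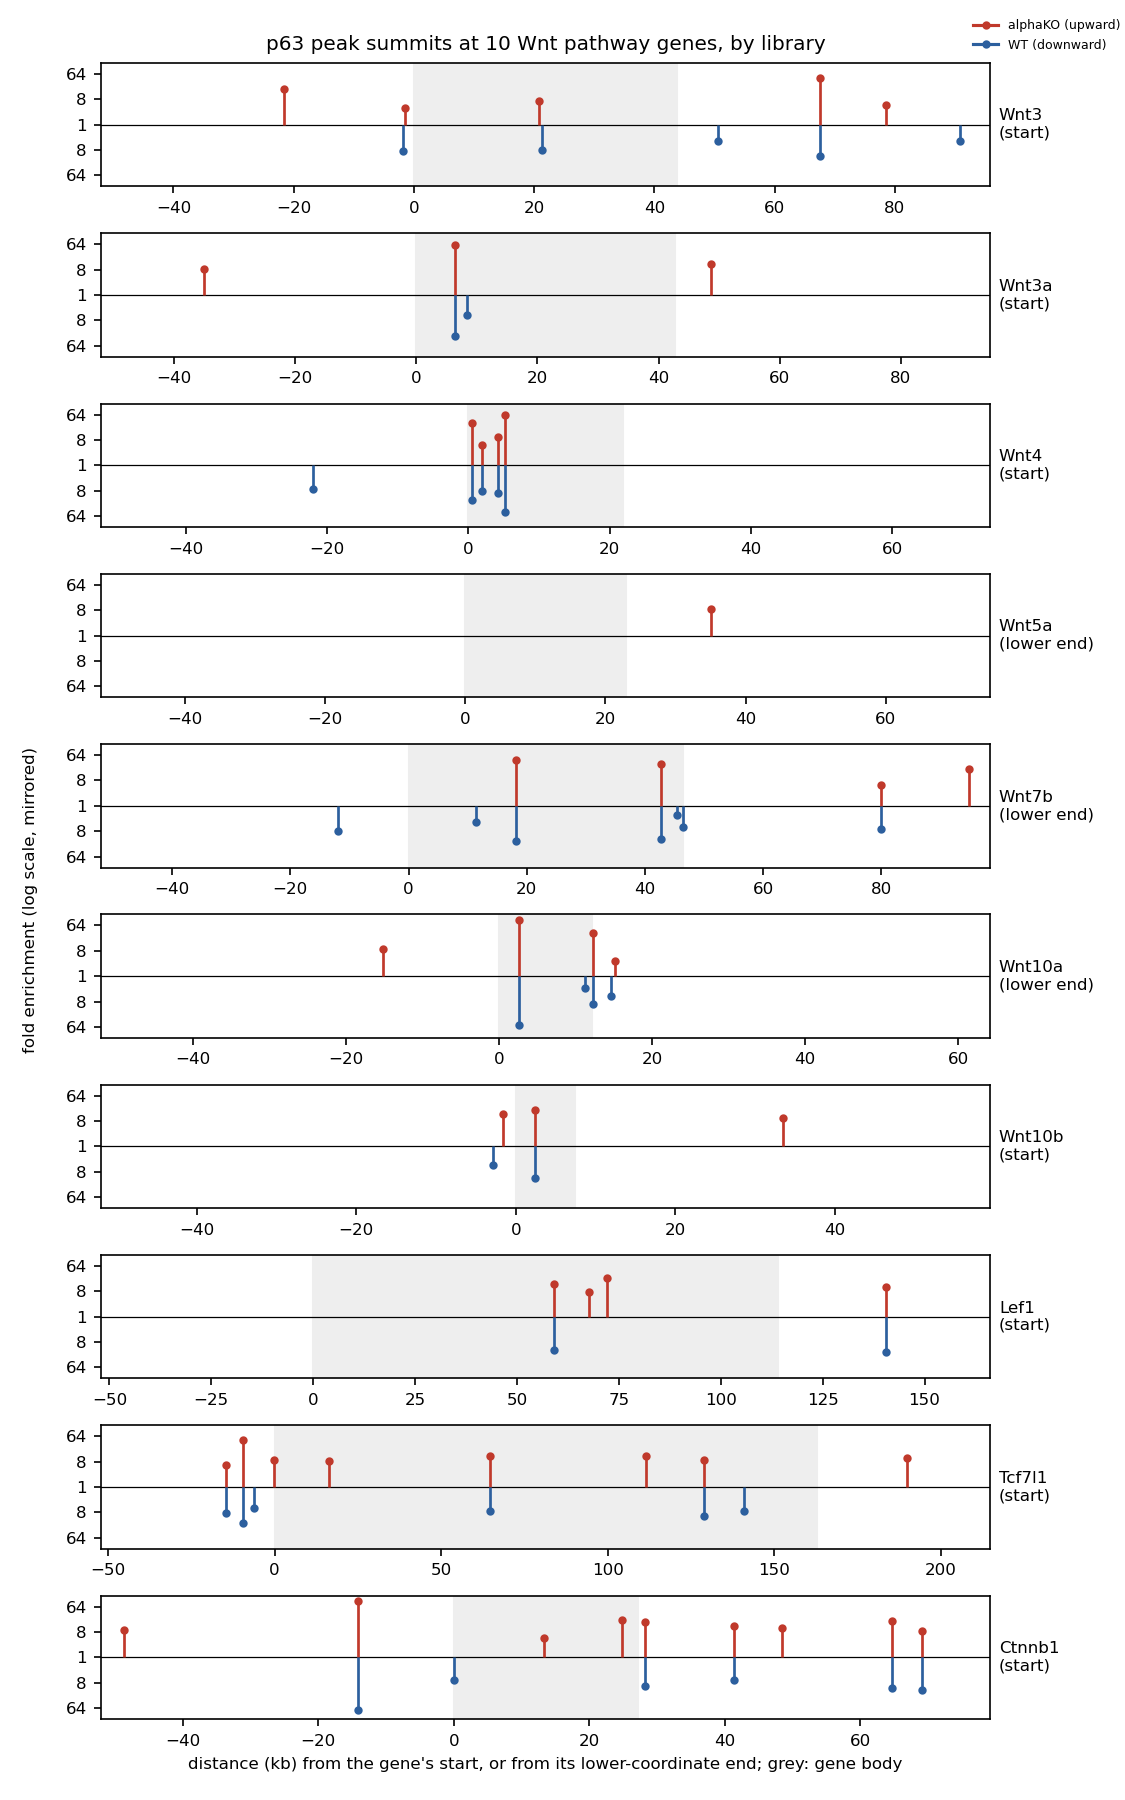
Positions of the p63 summits at the 10 genes, 1 panel per gene, with the distance in kb from the gene's start on the x axis (from its lower-coordinate end for Wnt5a, Wnt7b and Wnt10a) and the fold enrichment on a mirrored log scale. Red stems point up for alphaKO and blue stems point down for WT, and grey marks the gene body; most of the 26 shared sites show as stems that meet on the line, such as the 4 just inside Wnt4.

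The strongest sites were shared by the genotypes and belonged to the same 4 genes in both. Wnt3a, Wnt4, Wnt10a and Ctnnb1 each had a peak above percentile 90 of the folds in alphaKO and in WT, which 11.5% of all genes had in alphaKO and 9.50% in WT. Counted by peak, 4 of the 45 alphaKO peaks and 4 of the 39 WT peaks did so, near the share of any list above that percentile. The median fold at the 10 genes was 12.6 in alphaKO, below the 15.5 of its list, and 8.42 in WT, beside 8.44. Above the list median stood 17 of the 45 alphaKO peaks and 19 of the 39 WT peaks. The 19 sites in alphaKO only had folds of 4.98 to 23.6 (median 10.3), and the 13 sites in WT only had folds of 2.12 to 7.91 (median 5.12). None of the sites in a single list reached the upper quartile of its list, above which stood 10 of the 26 shared sites in alphaKO and 10 in WT. The whole lists show the same order: the median fold of peaks with and without a partner was 21.0 and 12.8 in alphaKO, and 11.5 and 4.79 in WT. In alphaKO 4 of its 19 single sites exceeded the list median, and in WT none of its 13 did.

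**Figure D2:**
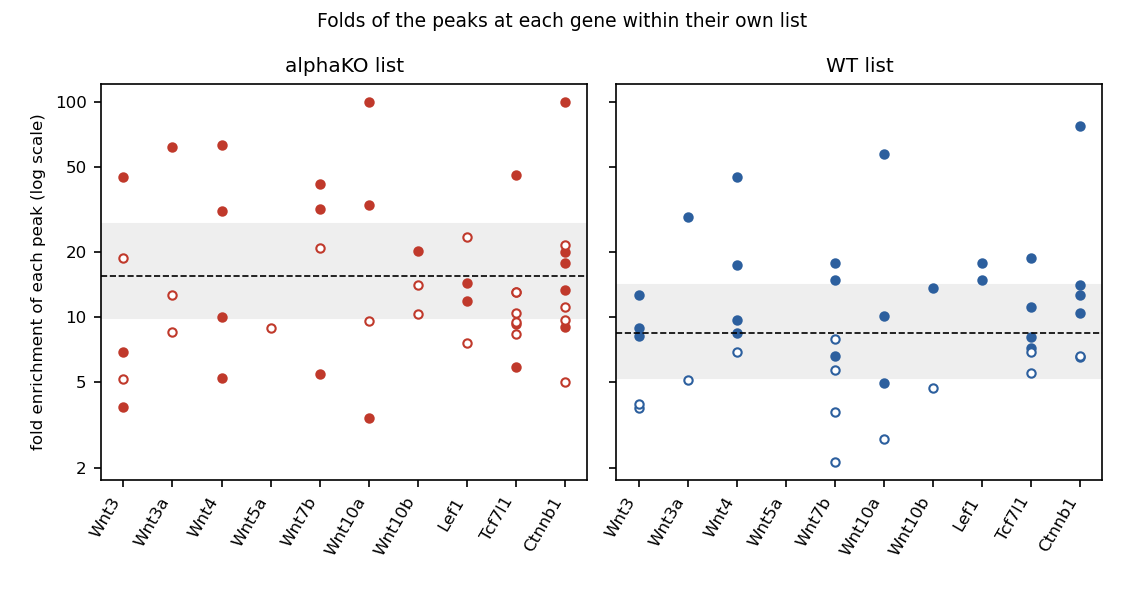
Fold enrichment (log axis) of every peak at each of the 10 genes, with the alphaKO list on the left and the WT list on the right. Filled points are sites listed in both genotypes and open points sites in that list only, the dashed line is the median fold of the whole list (15.5 in alphaKO, 8.44 in WT) and the grey band its quartiles; open points stay below the upper quartile in both panels.

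Wnt10a, a ligand gene whose human counterpart is mutated in ectodermal dysplasias of teeth, hair and sweat glands, held the highest fold of the 10 genes in alphaKO. The gene lies on chromosome 1 at 74792019 to 74804176. A site 2.66 kb inside the lower-coordinate end had a fold of 99.8 in alphaKO (peak at 74794388 to 74794981, pileup 570) and of 56.9 in WT (74794419 to 74794949, pileup 589). These folds stood at percentile 98.6 of the alphaKO list and 99.3 of the WT list. The next shared site, 12.3 kb from that end and just past the other end of the gene, had a fold of 33.2 in alphaKO and 10.1 in WT. Another shared site, 15.2 kb from the lower end, was weak in both, with folds of 3.39 in alphaKO and 4.97 in WT and summits 500 bp apart. Wnt10a also had a WT-only site with a fold of 2.70, and an alphaKO-only site 15.2 kb below the gene with a fold of 9.64, which lay inside the neighbouring ligand gene Wnt6.

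Wnt4, a ligand gene active in the epidermis between follicles, carried 4 shared sites packed into the first part of the gene (chromosome 4, 137277635 to 137299501, plus strand). The strongest was 5.23 kb downstream of the start, with folds of 63.2 in alphaKO and 44.9 in WT, and pileups of 441 in alphaKO and 511 in WT. The site nearest the start, 0.552 kb downstream, had folds of 31.1 in alphaKO and 17.5 in WT. Between them, sites 1.96 kb and 4.19 kb downstream had folds of 5.21 and 10.0 in alphaKO, and of 8.42 and 9.70 in WT. The peaks at the start differed in extent: the alphaKO peak was 504 bp wide and began inside the gene, while the WT peak was 1406 bp wide and covered all 250 bases upstream of the start. A further site, 22.0 kb upstream with a fold of 6.85, was in WT only. Within the 50 kb flanks no alphaKO summit lay outside the gene body, while with 100 kb flanks Wnt4 had 10 alphaKO summits in place of 4.

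Upstream sequences are shown for the 3 members with a peak over the 250 bases before an annotated start, out of the 7 members examined, to show which bases of a start a p63 peak covered. Such overlap was found for 3.08% of the 21229 promoter windows of protein-coding genes in alphaKO and for 6.69% in WT. The sequences are those of RefSeq (GRCm38.p6), whose promoter table was matched by 7 of the 10 genes. Each is written 5′ to 3′ on the gene's strand and ends 1 base before the start, and capitals mark the bases under the peak, which is a WT peak for Wnt4 and Ctnnb1 and an alphaKO peak for Tcf7l1. For Ctnnb1 the window before the outermost start is given.
Wnt4, chr4:137277385-137277634, plus strand: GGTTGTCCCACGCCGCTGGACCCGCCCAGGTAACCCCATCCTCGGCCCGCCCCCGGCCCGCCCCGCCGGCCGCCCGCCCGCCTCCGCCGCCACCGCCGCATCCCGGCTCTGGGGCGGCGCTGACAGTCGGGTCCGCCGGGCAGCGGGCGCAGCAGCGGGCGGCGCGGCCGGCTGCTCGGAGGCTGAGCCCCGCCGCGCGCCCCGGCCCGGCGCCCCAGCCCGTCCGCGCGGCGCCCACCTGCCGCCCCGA
Ctnnb1, chr9:120933150-120933399, plus strand: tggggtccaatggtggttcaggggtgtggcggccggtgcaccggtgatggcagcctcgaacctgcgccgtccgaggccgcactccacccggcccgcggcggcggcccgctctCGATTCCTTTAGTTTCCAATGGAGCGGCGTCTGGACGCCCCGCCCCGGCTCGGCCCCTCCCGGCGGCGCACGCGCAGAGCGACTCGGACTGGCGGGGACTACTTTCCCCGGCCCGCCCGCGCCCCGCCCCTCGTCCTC
Tcf7l1, chr6:72789046-72789295, minus strand: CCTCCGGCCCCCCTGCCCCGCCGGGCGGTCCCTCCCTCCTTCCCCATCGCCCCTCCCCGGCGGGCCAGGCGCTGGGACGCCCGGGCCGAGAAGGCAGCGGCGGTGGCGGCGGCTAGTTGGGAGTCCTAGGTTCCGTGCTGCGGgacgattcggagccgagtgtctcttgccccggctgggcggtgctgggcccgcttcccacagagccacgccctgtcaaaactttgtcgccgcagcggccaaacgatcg
None of the 3 windows held the core of the p53 family motif, taken as 2 copies of C, A or T, A or T, G with 6 bases between them, which 5.22% of all promoter windows held. The Lef/Tcf core, CTTTGA or CTTTGT on either strand, was in 25.3% of all windows. Of the 3 windows shown, that of Tcf7l1 held it, as CTTTGT from 28 to 23 bases upstream of the start and outside the peak. A window before an inner start of Lef1, with no peak over it, held this core 3 times. These matches describe the letters of the windows only. Promoters of the other pathway genes were not examined.

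Wnt3a, a canonical ligand gene (chromosome 11, 59248036 to 59290751, minus strand), had a single shared site, 6.41 kb downstream of its start. Its fold was 61.6 in alphaKO and 29.1 in WT, at percentiles 94.7 of the alphaKO list and 93.8 of the WT list. The other sites were weaker and unshared: in alphaKO 8.51 at 35.1 kb upstream, inside the ligand gene Wnt9a, and 12.6 at 48.7 kb downstream, and in WT 5.12 at 8.44 kb downstream.

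Wnt3, a ligand gene of the hair follicle epithelium (chromosome 11, 103774175 to 103818021, plus strand), showed shared sites that stood at different places in the lists. A site 67.6 kb downstream of the start, inside the neighbouring gene Nsf, had a fold of 44.7 and a pileup of 315 in alphaKO, and a fold of 12.7 and a pileup of 138 in WT. A site close to the start stood higher in the WT list, with a fold of 3.80 and a pileup of 28 in alphaKO, against a fold of 8.88 and a pileup of 114 in WT. That alphaKO peak was among the weakest 1.91% of its list, and its summit lay 1.53 kb upstream, inside Wnt9b. The remaining shared site, 20.8 kb downstream in the gene body, had folds of 6.89 in alphaKO and 8.18 in WT, with summits 515 bp apart. Of the unshared sites, those in alphaKO had folds of 18.7 (21.6 kb upstream, inside Wnt9b) and 5.14, and those in WT had folds of 3.78 and 3.97.

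Wnt7b, a ligand gene of developing hair follicles (chromosome 15, 85535437 to 85581821), had 4 summits in alphaKO and 7 in WT, the most WT summits of the 10 genes. As many WT summits were found for 1.09% of all genes. With only peaks of a fold of at least 5, or of a −log10 q of at least 10, Wnt7b had 5 WT summits, fewer than the 6 of Tcf7l1 and of Ctnnb1. Shared sites inside the gene had folds of 41.7 in alphaKO and 17.9 in WT (18.2 kb from the lower-coordinate end), and of 31.8 in alphaKO and 14.9 in WT (42.8 kb from it). A shared site outside the gene, 80.0 kb from that end, was weak, with folds of 5.43 in alphaKO and 6.61 in WT. The 4 WT-only sites had folds of 2.12 to 7.91, and the summit of the site with a fold of 5.69 lay at the higher-coordinate end of the gene. The alphaKO-only site had a fold of 21.0 and lay 48.4 kb outside the gene.

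Wnt10b, an early ligand gene of hair placodes (chromosome 15, 98770712 to 98778206, minus strand), had 1 shared site, 2.42 kb downstream of its start, with a fold of 20.3 in alphaKO and 13.6 in WT. Upstream of the start the genotypes had different sites. In alphaKO there was a peak at 1.61 kb with a fold of 14.2 (percentile 45.4), and in WT a peak at 2.80 kb with a fold of 4.66 (percentile 19.8). A further alphaKO-only site with a fold of 10.3 lay inside Arf3. Wnt5a, a ligand that acts mostly without beta-catenin (chromosome 14, 28504543 to 28527448), was the gene with the fewest sites. It had a single alphaKO peak, 12.2 kb outside the gene with a fold of 8.89 (percentile 19.6), and no WT peak within 50 kb, the nearest WT summit being 276 kb away. With the alphaKO list reduced to the length of the WT list, the Wnt5a peak was no longer listed.

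Lef1, which encodes a partner of beta-catenin in hair precursor cells and is itself a target of the pathway (chromosome 3, 131110297 to 131224357, plus strand), had 4 summits in alphaKO and 2 in WT. With the alphaKO list reduced to the length of the WT list, Lef1 had 2 summits in alphaKO and 2 in WT. The 2 kept in alphaKO, those of highest −log10 q, lay in the gene body 59.0 and 72.0 kb downstream of the start. In the full lists both WT sites were shared, but the alphaKO peak inside Hadh was among those dropped. A site in the gene body 59.0 kb downstream of the start had folds of 14.4 in alphaKO and 14.9 in WT. The other, 141 kb downstream and inside the neighbouring gene Hadh, had folds of 11.9 in alphaKO and 17.8 in WT, which was the strongest WT peak of the locus. The strongest alphaKO peak lay in the gene body 72.0 kb downstream, with a fold of 23.6 and a pileup of 194, and had no WT partner. It had the highest fold among the sites of the 10 genes listed in alphaKO only. A weaker alphaKO-only peak lay nearby with a fold of 7.58. No peak of either list lay within 2000 bp of the outermost start.

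Tcf7l1, which encodes a mostly repressive Tcf factor of embryonic epidermis and follicle stem cells (chromosome 6, 72626371 to 72789045, minus strand), is the longest of the 10 genes and had 8 summits in alphaKO and 6 in WT. As many were found for 0.690% of all genes in alphaKO and 2.03% in WT. Its strongest site lay 9.57 kb upstream of the start (alphaKO peak at 72798347 to 72798904, WT peak at 72798419 to 72798795), with folds of 45.5 in alphaKO and 18.8 in WT and pileups of 397 in alphaKO and 135 in WT. Weaker shared sites had folds of 5.88, 13.1 and 9.26 in alphaKO, and of 8.11, 7.17 and 11.1 in WT, at 14.4 kb upstream and at 64.6 and 129 kb downstream. Of the sites in alphaKO only, the peak with a fold of 9.44 had its summit 269 bp upstream of the start and covered 143 of the 250 bases shown above. The other 3 had folds of 8.35 to 13.1, and the farthest of them lay inside Retsat. The WT-only sites, with folds of 5.49 and 6.88, were 6.05 kb upstream and in the gene body.

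Ctnnb1 (chromosome 9, 120933400 to 120960507, plus strand) had 9 summits in alphaKO, the most of the 10 genes, and 6 in WT. As many alphaKO summits were found for 0.448% of all genes. Counting only summits nearest to the gene, Ctnnb1 had 5 alphaKO summits and Tcf7l1 had 7, with 10 kb flanks they had 3 and 6, and in the gene bodies 2 and 4. A site 14.1 kb upstream of the start held the highest WT fold of the 10 genes. It had a fold of 99.6 in alphaKO (peak at 120918956 to 120919525, pileup 773) and of 77.5 in WT (120918926 to 120919541, pileup 640), at percentiles 98.6 of the alphaKO list and 99.8 of the WT list. At the start a peak was listed for WT alone. Its fold was 6.59, its summit lay 76 bp downstream, and it covered 138 of the 250 bases shown above. A shared site just past the end of the gene, 28.2 kb from the start, had folds of 17.8 in alphaKO and 10.5 in WT. Within the gene body alphaKO had 2 peaks without a partner, with folds of 4.98 and 21.6, and it had another 48.6 kb upstream with a fold of 9.70. The 4 remaining downstream sites all lay inside the neighbouring gene Ulk4, 3 of them shared, with folds of 9.01 to 20.0 in alphaKO and 6.50 to 14.1 in WT.

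Ranked among the 7054 sites that the lists shared 1 to 1, which takes away the difference in list length, some of the Wnt pathway sites stood at different places in the lists. The site upstream of Ctnnb1 was at percentile 97.6 in alphaKO and 99.7 in WT, that of Wnt10a at 97.6 in alphaKO and 99.0 in WT, and that of Wnt3a at 91.5 in alphaKO and 90.7 in WT. Of the 26 sites, 7 (26.9%) stood more than 20 percentile points lower in alphaKO, beside 15.9% of all shared sites, and 2 (7.69%) more than 20 points higher, beside 16.1%. The 7 included both Lef1 sites, with percentiles of 33.0 and 25.8 in alphaKO and 65.7 and 74.1 in WT, and the farthest Ctnnb1 site, with 16.1 in alphaKO and 62.7 in WT. The others were at the start of Wnt3 (2.14 in alphaKO, 33.3 in WT), in Wnt4, and at 2 places of Tcf7l1. A lower rank did not always go with a lower pileup. The Lef1 site in the gene body had pileups of 215 in alphaKO and 177 in WT, over local backgrounds of 14.1 and 10.9. The Tcf7l1 site 129 kb downstream had pileups of 107 in alphaKO and 68 in WT, over local backgrounds of 10.7 and 5.20. The rest of the 7 had the lower pileup in alphaKO. The 2 sites that stood higher in alphaKO were the downstream Wnt3 site in Nsf (82.3 in alphaKO, 56.1 in WT) and the site at the end of Wnt10a (71.1 in alphaKO, 41.0 in WT). Read by the deposited values themselves, the fold was higher in alphaKO at 16 of the 26 sites (61.5%), beside 83.7% of all shared sites, and the pileup at 15 of the 26 (57.7%), beside 74.7%. With 1 library per genotype none of these differences has a replicate check.

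**Figure D3:**
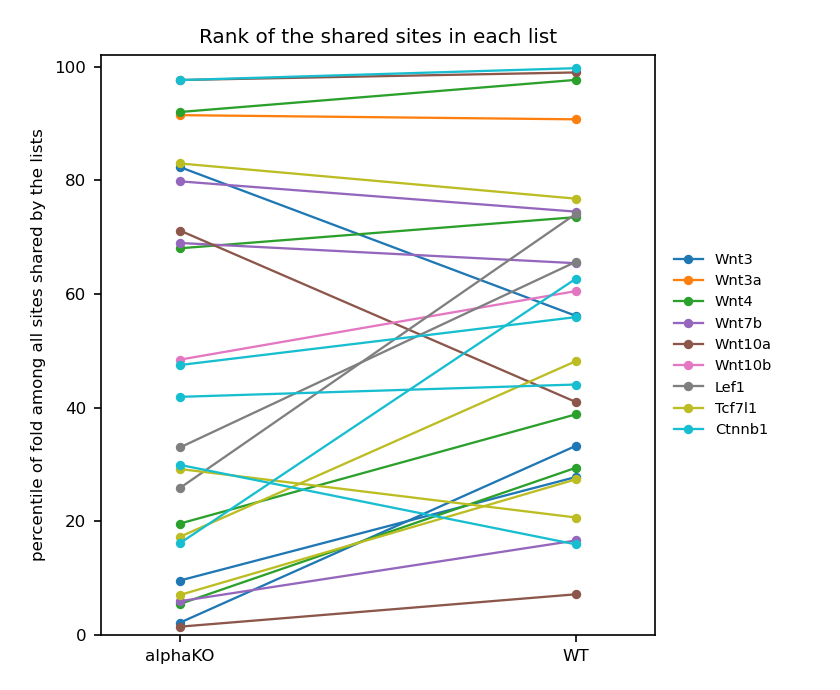
Percentile of the fold of each of the 26 shared sites among all 7054 sites shared by the lists, in alphaKO (left) and in WT (right), with 1 line per site coloured by gene. The lines of Lef1 and the lowest lines of Wnt3 and Tcf7l1 are lower in alphaKO.

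Not every site is nearest to the gene it was assigned to. The member gene was the nearest protein-coding gene, or contained the summit, for 32 of the 45 alphaKO peaks and 31 of the 39 WT peaks, and the rest lay in Wnt9b, Nsf, Wnt9a, Wnt6, Arf3, Hadh, Retsat and Ulk4. Summits in the body of a member gene numbered 19 in alphaKO and 20 in WT. Exons and introns were not told apart. Just inside the 50 kb limit were alphaKO peaks at Ctnnb1 (48.6 kb outside the gene, fold 9.70) and Wnt7b (48.4 kb, 21.0). Just beyond it lay alphaKO peaks at Wnt4 (54.0 kb, 16.0) and Wnt7b (54.2 kb, 25.3) and a WT peak at Wnt7b (54.2 kb, 21.5).

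Other genes of the pathway were examined in 7 lists, also chosen with earlier results known, with 83 distinct genes besides the members. Of these 64 had a summit within 50 kb in alphaKO (77.1%, beside 55.0% of all genes) and 61 in WT (73.5%, beside 47.1%). They comprised 53 genes with a summit in both, where 40.9% of all genes had one, 11 in alphaKO only (14.1% of all genes) and 8 in WT only (6.14% of all genes), and 11 had none. In each list the genes with a summit in both are named by their alphaKO fold. Where a pair of folds is given, each belongs to the gene's strongest peak in that list. Of 12 other Wnt ligand genes, 11 had a summit in alphaKO and 9 in WT, but 4 of them (Wnt1, Wnt6, Wnt9a and Wnt9b) neighbour a member and share its sites. Wnt7a had a fold of 181 in alphaKO and 44.7 in WT inside the gene, and Wnt16 had 91.8 in alphaKO and 59.0 in WT at a site nearer to Cped1. Wnt8b (17.4, at a site nearer to Sec31b) and Wnt2 (7.19) had a summit in alphaKO only.

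Of 15 receptor genes, 11 had a summit in alphaKO and 11 in WT (73.3% in each), beside 55.0% of all genes in alphaKO and 47.1% in WT. Lrp6, a co-receptor, had folds of 56.0 in alphaKO and 19.6 in WT, and Fzd6, a Frizzled receptor that orients hair follicles in mice, had 49.1 in alphaKO and 22.1 in WT, both inside the gene. Fzd1 had 53.4 in alphaKO and 17.5 in WT at different sites, Fzd3 a summit in alphaKO only (13.6) and Fzd2 in WT only (14.8). Of 11 genes of Wnt secretion and the R-spondin arm, which raises the number of receptors at the cell surface, 6 had a summit in alphaKO and 6 in WT. That is 54.5% in each, near the share of all genes in alphaKO. The R-spondin receptor genes Lgr6 (95.3 in alphaKO, 43.1 in WT) and Lgr4 (48.3 in alphaKO, 18.0 in WT) and the ubiquitin ligase gene Rnf43 (44.8 in alphaKO, 20.2 in WT) had the highest alphaKO folds. In WT the highest fold of the list was that of Znrf3, another ubiquitin ligase gene (37.0 in alphaKO, 71.5 in WT), which was chosen after its values were seen and whose site is the one beside Kremen1. None of the 4 R-spondin genes had a summit in either list. Lgr5, a follicle stem cell gene, had a summit in alphaKO only (22.6), and Porcn, needed for Wnt secretion, in WT only (5.04).

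Of 14 inhibitor genes, 10 had a summit in alphaKO (71.4%, beside 55.0% of all genes) and 8 in WT (57.1%, beside 47.1%). The site beside Kremen1, a Dickkopf receptor gene, had a fold of 37.0 in alphaKO and 71.5 in WT, so that its higher value was in WT. Kremen2 had 41.4 in alphaKO and 33.0 in WT, and Sfrp2 had 65.6 in alphaKO and 8.64 in WT, both at different sites in the lists. The alphaKO site of Sfrp2 lay 40.7 kb outside the gene, was nearer to Tlr2 and had no WT partner. Notum (38.6) and Sostdc1 (26.6) had a summit in alphaKO only, and Sfrp5 (4.37) and Sost (3.92) in WT only, all 4 at sites nearer to other genes. The destruction complex and Dishevelled genes were the list in which more genes had a WT summit: 7 of 12 in alphaKO and 9 of 12 in WT. Btrc, which encodes an adaptor for beta-catenin degradation, had 152 in alphaKO and 26.8 in WT. Gsk3a had 82.6 in alphaKO and 44.4 in WT near Cic, and Nkd1 had 25.5 in alphaKO and 10.2 in WT near Snx20. For each of these genes the strongest peaks of the lists were at different sites. Dvl3 (19.4, nearer to Eif2b5) and Gsk3b (3.61) had a summit in alphaKO only, and Dvl1 (10.4) and Axin1 (5.78, nearer to Pgap6) in WT only.

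All 12 nuclear partners of beta-catenin had a summit in alphaKO and in WT, beside 55.0% of all genes in alphaKO and 47.1% in WT. Bcl9l, a coactivator gene, had 40.9 in alphaKO and 65.4 in WT inside the gene, and the corepressor gene Tle4 had 42.0 in alphaKO and 15.6 in WT. Ctbp1, another corepressor gene, had 41.5 in alphaKO and 17.3 in WT at a site nearer to Spon2. Of 12 known target genes, a list that includes Lef1, 12 had a summit in alphaKO (100%) and 10 in WT (83.3%). The highest alphaKO folds were those of Tnfrsf19 (62.2 in alphaKO, 14.3 in WT) and the cyclin D1 gene Ccnd1 (49.9 in alphaKO, 44.1 in WT). Next came Fgf20, a growth factor gene of hair placodes (32.8 in alphaKO, 16.8 in WT, at different sites). Sp5 (15.1, at a site nearer to Myo3b) and Lgr5 had a summit in alphaKO only. No list's counts were tested between the genotypes or against all genes.

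**Figure D4:**
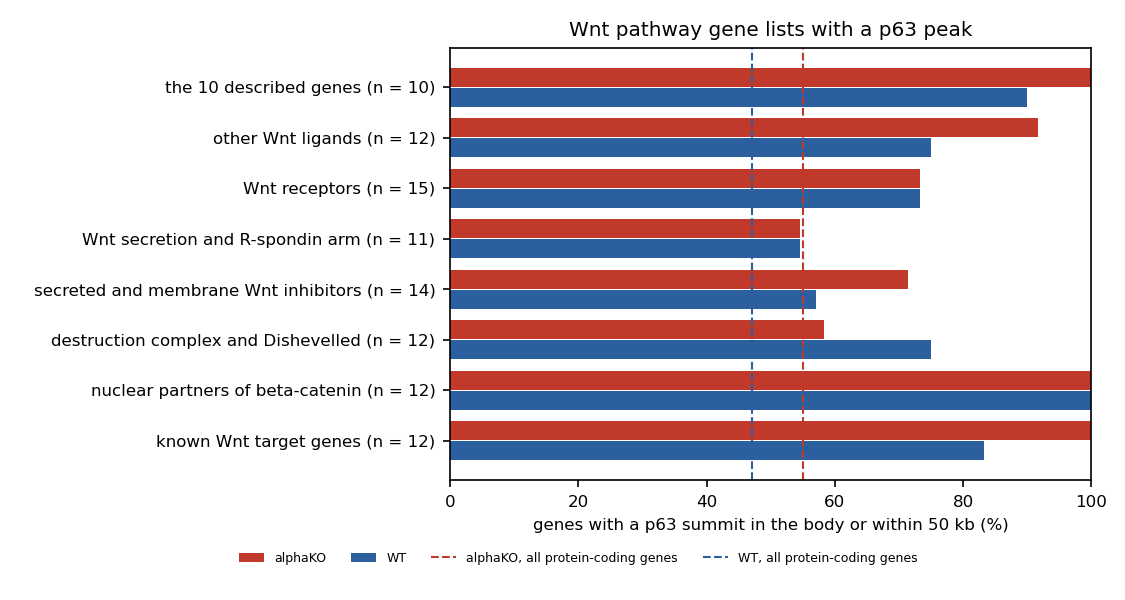
Share of genes with a p63 summit in the gene body or within 50 kb (%), in red for alphaKO and blue for WT, for the 10 genes and 7 other Wnt pathway lists with the number of genes in each. Dashed lines give the share of all protein-coding genes, 55.0% in alphaKO and 47.1% in WT; the genes of Wnt secretion and the R-spondin arm lie near these lines, and all 12 nuclear partners had a summit in both.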

How the data were processed

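Peak lists of p63 ChIP-seq from mouse epidermis were analysed, 1 for alphaKO and 1 for WT. The submitters' processing notes name Bowtie2, MACS2 2.1.1.20160309 and mm10, while the caller's options and control library were not given in the sources used here. Each peak has, per the file headers, the authors' value of its pileup (a coverage signal), −log10 of its p-value and q-value, and its fold enrichment (a ratio to local background). The smallest −log10 q was 1.36 in alphaKO and 1.31 in WT, and each list came from 1 library. Whether a library pooled several animals was not given in the sources used here. Coordinates are 1-based. Adding 1 to the pileup, dividing by the fold and subtracting 1 gave the local background.

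Genes and promoters came from RefSeq (GRCm38.p6, the assembly of mm10). Starts were those of its promoter table, with the outermost taken. A percentile is the share of a list's peaks with the same or a lower fold. Sharing meant at least 1 bp of overlap. The members and lists were chosen with earlier results of these data known. Text names all members, genes nearest to their sites, and in each list up to 3 genes with a summit in both genotypes and up to 2 in each alone, by fold (alphaKO fold where in both). Alternatives changed the flanks, the fold and q-value minimums, the overlap rule and the list lengths. The code recovered summits planted in gene windows and overlaps with shifted copies of WT peaks, which checks the counting alone. The tools were pandas 2.3.3 and NumPy 2.4.6 under Python 3.11.15, SciPy 1.17.1 for exact intervals, and matplotlib 3.10.9.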

Additional observations from a re-analysis of the deposited data

How the results depend on the processing

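Distance and the length of the lists moved some of the total counts and shares. Of their comparisons with an alternative, 54 stayed within 1.5 times the count or the interval of the share and 8 did not. With 10 kb flanks the 10 genes held 27 alphaKO peaks, and 37 (alphaKO) and 40 (WT) of the 83 other pathway genes had a summit. At that setting 30.6% of all genes had a summit in alphaKO and 26.4% in WT. Counting gene bodies alone, the 10 genes held 19 alphaKO and 20 WT peaks, and 31 (alphaKO) and 30 (WT) pathway genes had a summit. Of all genes, 19.5% had a summit in the body in alphaKO and 15.7% in WT. These narrower windows take in fewer peaks by construction. With the alphaKO list reduced to the length of the WT list, 48.7% of the WT peaks had a partner in place of 66.7%, since fewer alphaKO peaks were left. In that shorter list 9 of the 10 genes had an alphaKO summit, beside 47.3% of all genes. For the summit counts of single genes, 104 comparisons stayed within 1.5 times and 36 did not, among them WT summits at Wnt3 (3 in place of 5), Wnt10a (2 in place of 4) and Wnt10b (1 in place of 2) with folds of at least 5. At equal list lengths alphaKO summits numbered 2 at Wnt3 in place of 5, and 2 at Wnt10a and at Lef1 in place of 4. No direction was called, so none was reversed. No paired analysis was possible because each genotype had 1 library. The unknown depth limits every site in a single list: a site absent from a list can lie under its threshold.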
